A study of Mus musculus with 8 samples.

Results

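Chromosome 12 was followed along its length in liver tumors of FAH-/- mice through 6687 probes of a mouse comparative genomic hybridization array, out of 170305 different probes in all. The members are the non-control probes that the array design places on chromosome 12 of mm9 with a start below 114400000. They cover 12:3102541-114396597 with a median spacing of 11 kb. Another 459 probes of chromosome 12 lie beyond that end and were not counted as members, and 163037 probes cover the other autosomes and X.

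The tumors came from 8 individual male mice of genotype FAH-/-, and all arrays share 1 control, which combined liver DNA of 6 FAH+/+ littermates, also male. Drinking water held NTBC at 7.5 mg/L unless stated otherwise, and the labels give for the treatment a lowered regimen of 2.5% of the normal dose lasting 6 to 12 months; ages are not given. Tumor DNA carried Cy5 and pool DNA Cy3 on every array without a dye swap, and normal liver of the tumor mice was not analysed here. Tumors are numbered 1 to 8, tumors 1 to 4 on slide 1 and tumors 5 to 8 on slide 2, which were scanned on different days.

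FAH is the last enzyme of tyrosine breakdown, and without it toxic intermediates build up in hepatocytes. NTBC blocks the pathway at an earlier step, so a low dose leaves a chronic injury in which liver tumors arise. In comparative genomic hybridization tumor and control DNA compete for the same probes, so a region with fewer copies in the tumor gives a log2 ratio below 0. The loss of 1 of 2 copies in every cell of a diploid sample would give -1. A smaller shift in a sample that mixes tumor and normal cells cannot be told apart from a loss carried by some of the tumor cells only.

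Mouse chromosome 12 holds 679 protein-coding genes and 97 microRNA genes in the RefSeq annotation of GRCm38.p6. Genes were assigned by chromosome only, since the array positions are on another build, so no gene is placed within a step or a focal loss. All 62 genes of the lists drawn up for the chromosome were on it. They comprised 17 genes of liver function, among them Apob, the main protein of very-low-density lipoprotein, and Foxa1, a factor that opens liver enhancers. Growth signalling gave 11 genes, such as Pik3cg, a catalytic subunit of PI3-kinase, and tumor suppressors, chromatin and repair gave 11, such as Dicer1, which cuts microRNA precursors, and Traf3, which restrains NF-kB signalling. A further 15 were large genes, 6 were imprinted genes of the Dlk1-Dio3 domain, and Sav1 of the Hippo pathway and Gstz1 of tyrosine breakdown stood for 1 list each.

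The imprinted domain carries a long cluster of microRNAs that are expressed from the maternal chromosome. RefSeq lists 167 mature microRNAs from chromosome 12, of which 20 share their seed, bases 2 to 8, with another one of the chromosome. Each shared seed is held by 2. Members of 2 such pairs are shown because a loss of the whole chromosome lowers the copies of both holders of a seed together. The seed is in capitals.
mmu-miR-379-5p: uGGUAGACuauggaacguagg
mmu-miR-1193-5p: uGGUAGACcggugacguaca
mmu-miR-379-3p: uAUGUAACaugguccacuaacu
mmu-miR-411-3p: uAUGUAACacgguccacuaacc
The array measured DNA, so the levels of these RNAs were not measured.

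Values are given on 2 scales. Segments, steps, stretches, bins and focal losses are on the second unless array medians or a kept pattern are named. On the first, log2 ratios were centred on the median of all probes of an array. On the second, a pattern from probe to probe that the arrays share was subtracted, and 0 was placed at the level held by most segments of a tumor, weighted by length and called its commonest level. The noise between neighbouring probes was 0.39 to 0.65 on array medians and 0.12 to 0.21 on the second scale. With the pattern kept, the commonest level lay between 0.02 and 0.25 above the array median. The mean of the whole chromosome is lower on the second scale than on array medians in all 8 tumors. Single regions can be higher or lower, depending on the pattern there. Between 97.0% and 99.9% of the spots of an array exceeded background clearly in both colors, and the number of arrays limits the precision.

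Chromosome 12 was lost over its whole length in tumors 1, 4, 6 and 8 on both scales, a call that needs at least 80% of the probed length in segments with a mean of -0.2 or less. The 4 calls stand beside 9 such calls among 160 chromosome-by-tumor pairs (5.62%) on array medians and 17 of 160 (10.6%) on the second scale. On array medians the lost share of the probed length was 99.9% in tumor 1, 95.3% in tumor 4, 99.8% in tumor 6 and 99.9% in tumor 8. On the second scale it was 100% in tumors 1, 6 and 8 and 98.5% in tumor 4. In the other tumors 24.3% of the length was lost in tumor 2 and 5.66% in tumor 7 on the second scale, against 1.02% in each on array medians, and none in tumors 3 and 5. Over the whole genome the lost share on the second scale was 1.95% in tumor 2 and 7.70% in tumor 7. The lost share of chromosome 12 in tumor 7 was therefore below that of its genome. Whatever the positions of the 62 list genes within the probed length, they lay in lost segments of tumors 1, 6 and 8 on the second scale, while those in the kept part of tumor 4 could not be named.

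The depth of the loss differed between the 4 tumors. On the second scale the mean over the chromosome was -0.69 in tumor 1, -0.37 in tumor 4, -0.49 in tumor 6 and -0.40 in tumor 8. These levels correspond to 61.9%, 77.5%, 71.3% and 75.7% of the signal at each tumor's commonest level. On array medians the same tumors stood at -0.48, -0.23, -0.23 and -0.32, so tumor 1 was lowest on both scales, while the order of the others depended on where 0 was set. The standard error over probes was at most 0.003 on the second scale. Each tumor was hybridized once, so differences between tumors in depth have no replicate check, and the share of tumor cells in each sample is not known.

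The other 4 tumors lay higher. On the second scale tumor 2 had a mean of -0.16, tumor 3 of -0.021, tumor 5 of -0.0038 and tumor 7 of -0.030, which is 89.5%, 98.6%, 99.7% and 97.9% of the commonest level. On array medians they stood at -0.017, 0.17, 0.023 and 0.055. The share of probes below 0 on the second scale was 86.5% in tumor 2, 57.9% in tumor 3, 51.0% in tumor 5 and 52.8% in tumor 7, against 96.2% to 99.8% in the 4 tumors with a whole loss. Tumor 2 therefore lay between the groups, lowered along most of the chromosome by an amount below the call threshold. With a threshold of 0.1 on the second scale, chosen after the values were seen, it was called as well, which made 5 tumors.

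**Figure D1:**
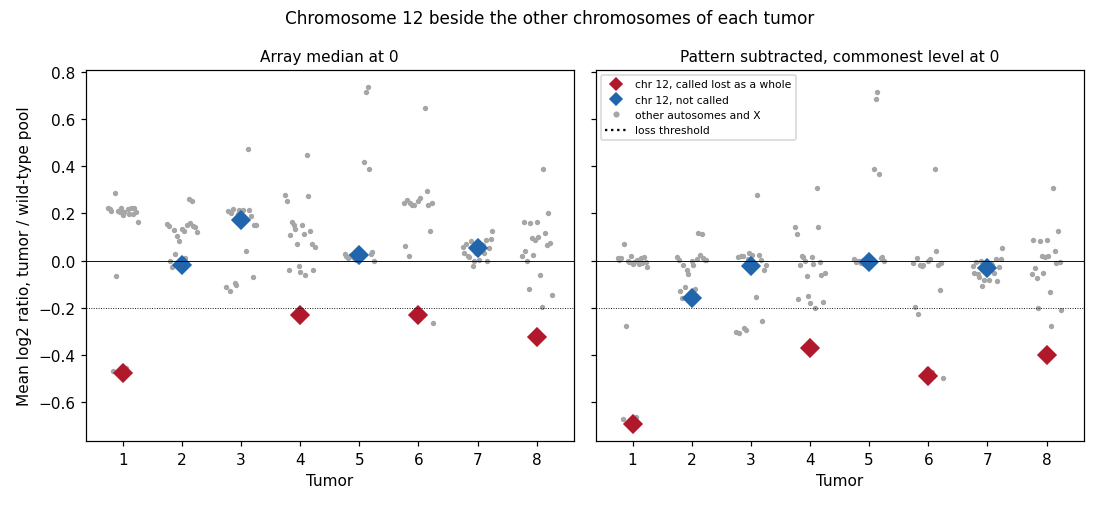
Mean log2 ratio of each chromosome (y axis) in tumors 1 to 8 (x axis), on array medians (left) and with the shared pattern subtracted and the commonest level at 0 (right). Diamonds are chromosome 12, red where it was called lost as a whole and blue where it was not, gray points are the other autosomes and X, and the dotted line is the threshold of -0.2; on the right the 4 red diamonds lie between -0.69 and -0.37.

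Within each tumor the loss could be set beside its other losses. In tumor 4 no other chromosome was lost as a whole on either scale. Several had lowered means on the second scale that stayed above -0.2: chromosomes 14 (-0.199), 10 (-0.179), 19 (-0.175), 3 (-0.163) and 9 (-0.150). In tumor 1 chromosome 12 (-0.69 on the second scale) lay beside chromosome 4 (-0.67) and chromosome 13 (-0.66), with differences of -0.023 and -0.031. In tumor 6 it stood at -0.49, and the other 5 lost chromosomes, 8, 9, 13, 14 and X, lay between -0.50 and -0.46.

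Tumor 8 lost chromosome 14 as well on the second scale, at -0.28, and chromosome 12 differed from it by -0.13. Tumor 3 lost 5 other chromosomes on that scale and kept chromosome 12 at -0.021. In tumor 2 chromosome 12 (-0.16) and chromosome 4 (-0.16) were the lowest of the 20 chromosomes. Chromosomes 9 (-0.14), 3 (-0.13), 13 (-0.12) and 6 (-0.11) of tumor 2 came next on the second scale. Chromosome 12 ranked lowest of the 20 in tumors 1, 2, 4 and 8 on the second scale.

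Over all tumors chromosome 12 averaged -0.13 ± 0.22 (SD, n = 8) on array medians. It was below 0 in 5 of 8 tumors and did not pass the two-sided exact sign-flip test (exact p = 0.148, adjusted p = 0.228 over 20 chromosomes). That test passed for 4 of 20 chromosomes (20%), which were chromosomes 2, 11, 15 and 16. Their means lay above 0, between 0.14 and 0.40, with 0 of 8 tumors below 0 in each. For chromosome 12 the second scale gave a mean of -0.27 ± 0.25 (SD, n = 8) with 8 of 8 tumors below 0. The exact p of 0.00781 is the smallest that 8 tumors allow, the adjusted p was 0.0781, and 0 of 20 chromosomes passed (0%). Without tumor 1 the mean on array medians was -0.078. Tumors on slide 2 and slide 1 had means of -0.12 ± 0.19 and -0.14 ± 0.28 on array medians (SD, n = 4 each; exact permutation p = 0.886 over 70 splits). On the second scale they were -0.23 ± 0.25 and -0.31 ± 0.29 (SD, n = 4 each; exact permutation p = 0.714). Whole losses were called on both slides, in tumors 6 and 8 on slide 2 and in tumors 1 and 4 on slide 1, and slide and scan day cannot be told apart.

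In 1 Mb bins with at least 5 probes, 106 of which cover the chromosome, the loss ran through nearly every bin of the 4 tumors. All 106 bins were at or below -0.2 on the second scale in tumor 1, against 17.3% of all 2531 bins of that tumor. The same held for 106 bins in tumor 6 (36.6% of all its bins) and 106 in tumor 8 (14.1%). In tumor 4 it held for 104 bins (10.3% of all its bins), and the exceptions fall in a single region described below.

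In the tumors without a whole loss, tumor 2 had 21 such bins of 106 on chromosome 12, against 2.25% of all its bins. Tumor 7 had 7 of 106, near the 6.16% of all its bins. Tumor 3 had 0 on chromosome 12 (30.3% of all its bins) and tumor 5 had 0 (0.435%). The bins of tumor 2 lay in long shallow segments rather than in a deep one. Its segments at or below -0.2 were 12:16407213-31077461 at -0.22, 12:83459533-84922011 at -0.23, 12:87399728-90176319 at -0.21, 12:104943473-111672225 at -0.24 and 12:113018556-114396597 at -0.25. Over its 11 segments of at least 3 Mb the level ran between -0.24 and -0.11. The partial loss of tumor 2 on the second scale was thus a shallow lowering along the chromosome that crossed the threshold in places. On array medians only its segment 12:113259586-114396597, at -0.44, reached the threshold. At 12:17015339-25700050 tumors 2, 7 and 8 differed from their own chromosome 12 medians by -0.046, -0.15 and -0.054. The remaining tumors lay above theirs there.

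**Figure D2:**
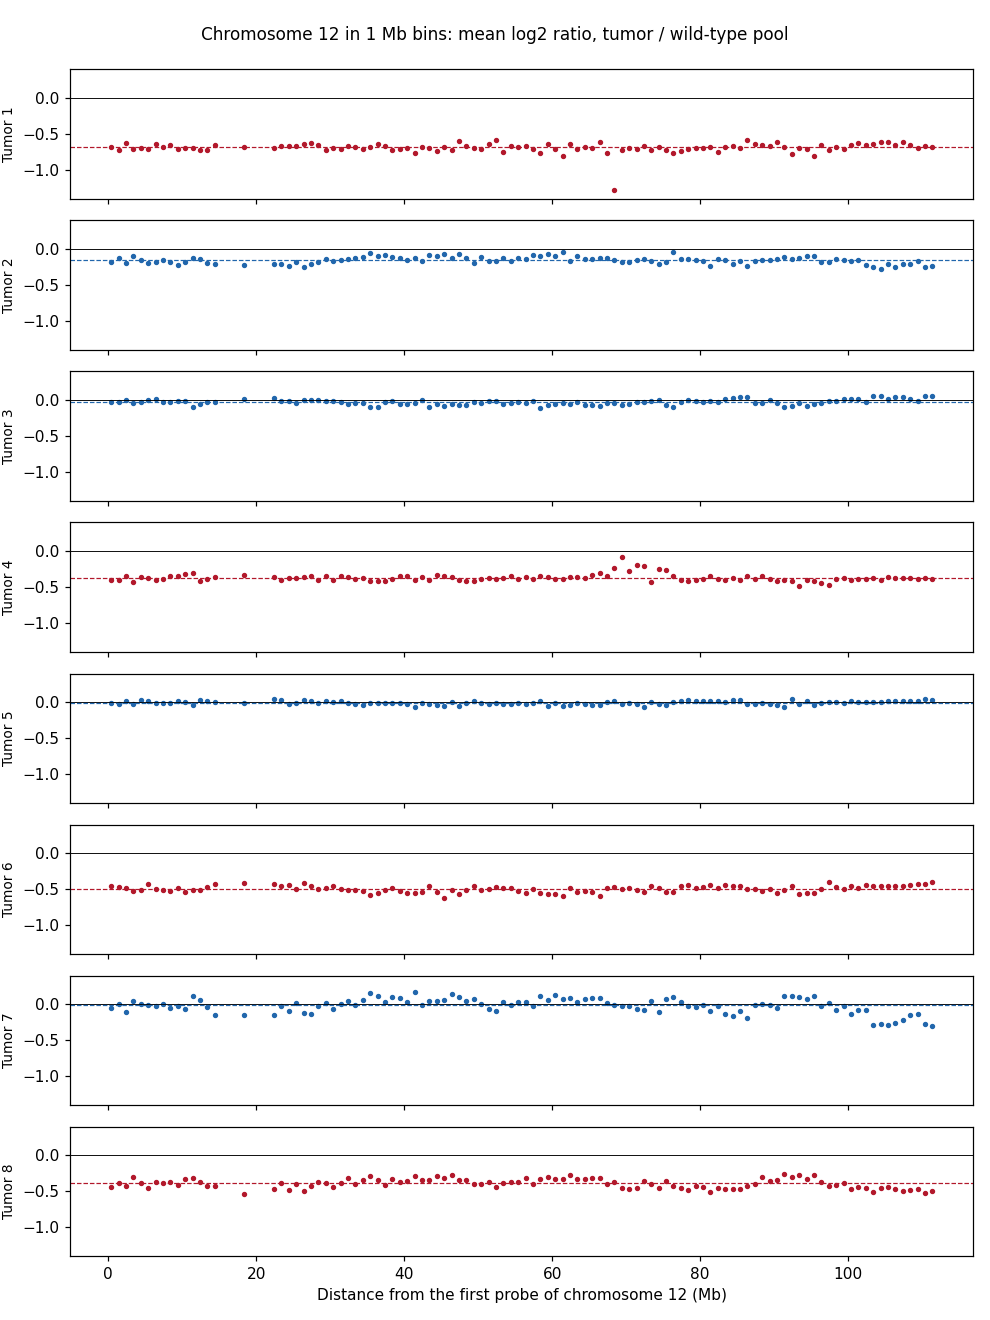
Mean log2 ratio per 1 Mb bin on the second scale (y axis, the same range in all panels) against the distance from the first probe of chromosome 12 in Mb (x axis), 1 panel per tumor. Points are bins, red in the 4 tumors with a whole loss and blue in the others, the black line is 0 and the dashed line the tumor's median bin; tumor 1 has a single bin at -1.28 and tumor 4 a group of raised bins, the highest at -0.076.

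Segments of at least 3 Mb within each lost chromosome stayed close in level. They lay between -0.71 and -0.65 in tumor 1 (6 segments), between -0.45 and -0.36 in tumor 4 (6 segments), between -0.54 and -0.45 in tumor 6 (10 segments) and between -0.48 and -0.31 in tumor 8 (14 segments). In the tumors without a whole loss other than tumor 2, the range was -0.062 to 0.050 in tumor 3 (9 segments), -0.022 to 0.019 in tumor 5 (7 segments) and -0.16 to 0.11 in tumor 7 (11 segments). The longest single segment was 51.7 Mb in tumor 1. The range over such segments was widest in tumor 7 and narrowest in tumor 5.

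The deepest point of chromosome 12 was a focal loss in tumor 1 at 12:70993213-71313799, 321 kb long with 33 probes. Its mean on the second scale was -2.03 ± 0.063 (SE over probes), or 24.5% of the commonest level, against a median of -0.71 (61.1%) for the probes within 2 Mb on both sides. The difference from the flanks was -1.32. Of its 33 probes 32 lay below -1, with a lowest of -2.68, a median of -2.11 and a highest of -0.67.

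On the second scale the edges were sharp at the spacing of the array. The last probe before the loss ends at 70976067 and the first after it starts at 71327374. On array medians the segment was 12:70976008-71327433 with 35 probes, which takes in both of these probes. In the other 7 tumors the region of the second scale differed from its own flanks by -0.15 to 0.084, which in no other tumor reached the 0.3 that a focal loss needs. Their means there were -0.11 in tumor 2, -0.032 in tumor 3, -0.35 in tumor 4, 0.070 in tumor 5, -0.45 in tumor 6, -0.0054 in tumor 7 and -0.35 in tumor 8.

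The value depended on the processing while the direction did not. On array medians with the pattern kept the region stood at -1.68, or -1.11 from its flanks, and after normexp background subtraction the difference was -0.71, with the region split into neighbouring parts of 7 and 26 probes. Among 122 focal losses of all chromosomes and tumors by the same rule (under 3 Mb, at least 5 probes and at least 0.3 below the flanks) it was the deepest against its flanks on the second scale.

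Tumor 4 had a region in which its loss was shallower. It spans 8077 kb, 12:71548033-79625228, and begins 234 kb beyond the end of the focal loss of tumor 1. The first stretch, 12:71548033-73233012 with 120 probes, had a mean of -0.044 ± 0.018 (SE over probes), 97.0% of the commonest level and 0.33 above the median of chromosome 12 in tumor 4. In it 63.3% of probes were below 0, against 96.8% in the rest of the chromosome.

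A narrow stretch at 12:73242247-73773259, with 55 probes, returned to -0.38. It was followed by 12:73781401-75990297 with 152 probes at -0.20, by 12:75997431-76992711 with 103 probes at -0.42 and by 12:77006444-79625228 with 193 probes at -0.25. On the second scale tumor 4 thus alternated between 3 shallower stretches, which together cover 6513 kb, and 2 at its usual depth. The last of them was 0.12 and the middle one 0.17 above its chromosome 12 median.

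At the 6 boundaries of these stretches the level changed by 0.33, -0.34, 0.18, -0.22, 0.17 and -0.13 in order along the chromosome, with standard errors over probes of 0.012 to 0.025. In the other 7 tumors the first stretch differed from their own chromosome 12 median by -0.058 to -0.014. Tumor 1 stood there at -0.73, tumor 6 at -0.50 and tumor 8 at -0.44, so the other tumors with a whole loss lay below their own chromosome 12 medians there. With the pattern kept, the first stretch of tumor 4 was at 0.15 on array medians, 0.38 above its chromosome 12 mean, against -0.0043 to 0.046 for the same difference in the other 7 tumors.

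The finer division depended on the scale. With the pattern kept the 5 stretches of tumor 4 lay 0.38, 0.051, 0.17, 0.024 and 0.073 above its chromosome 12 mean, in order along the chromosome, and the last was 0.078 above the median after normexp. Segmentation on array medians gave a single raised segment over this region, 12:71026623-76196776 with 396 probes at -0.0067 ± 0.036 (SE over probes), between long segments at -0.23 and -0.24. It did not separate the stretches, and it did not include the last of them.

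**Figure D3:**
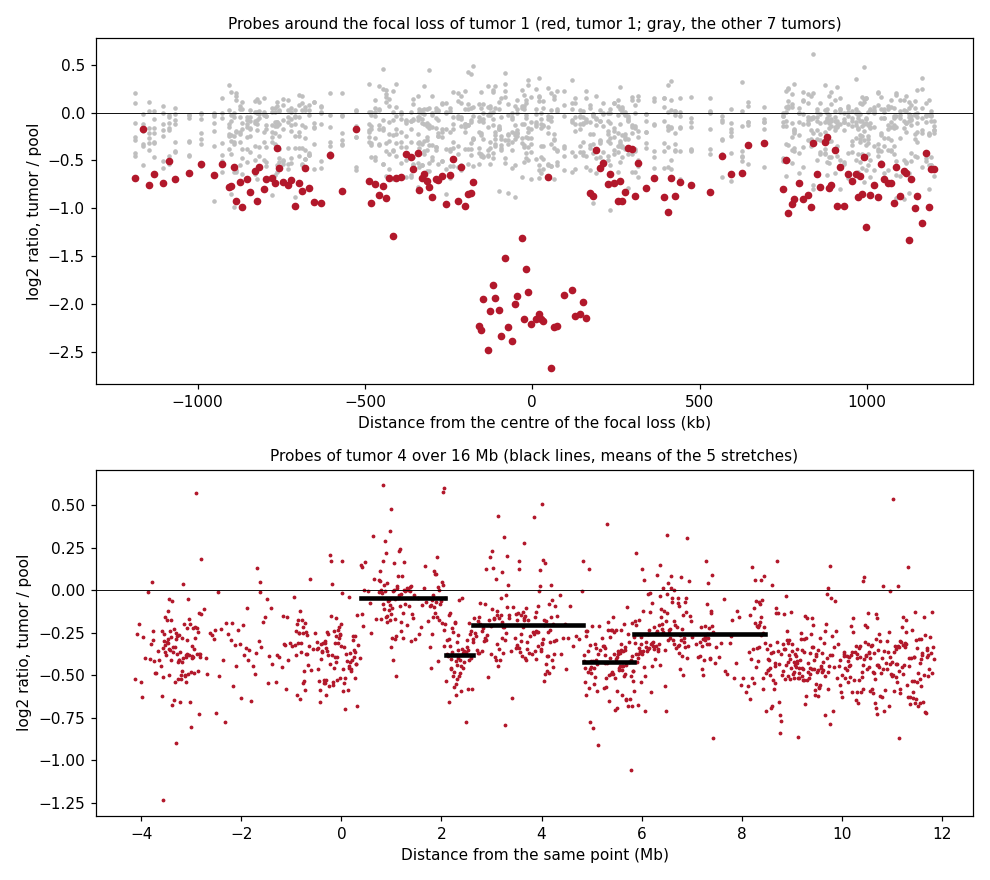
Log2 ratio of single probes on the second scale (y axis) against the distance from the centre of the focal loss of tumor 1 (x axis, in kb above and Mb below). In the upper panel red points are tumor 1 and gray points the other 7 tumors; in the lower panel red points are tumor 4 and black lines the means of its 5 stretches, at -0.044, -0.38, -0.20, -0.42 and -0.25.

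Steps were counted as boundaries between neighbouring segments of at least 20 probes, and those of at least 0.12, a size chosen after the values were seen, were singled out. Tumor 4 had 6 of them among the 106 bins of chromosome 12 (5.66 per 100 bins), against 30 among all its 2531 bins (1.19%). Over all tumors there were 43 such steps among 848 bins by tumor of chromosome 12 (5.07 per 100), against 4.98% over the genome, so their frequency on chromosome 12 was near the background. Tumor 7 contributed 27 (25.5 per 100 bins, against 22.5% over its genome) and tumor 8 contributed 5 (4.72 per 100 bins, against 7.35%), while tumors 1, 2 and 3 had 1 each, tumor 6 had 2 and tumor 5 had 0. The largest step of tumor 5 was 0.040.

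Besides the steps of tumor 4, single stretches lay apart from the tumor's own chromosome 12 median. In tumor 8 the stretch 12:3864209-4073551, with 24 probes, stood at -0.61, a difference of -0.22 from that median. In the other tumors this difference was -0.21 to 0.040. In tumor 6 the lost chromosome deepened to -0.64 at 12:47884374-48949635, 45 probes and 0.15 below its own median, and the same stretch was 0.059 below the median in tumor 5 and 0.097 above it in tumor 8. In tumor 7 the stretch 12:110155762-110855620, with 43 probes, stood at -0.29, as did the interval 12:105677292-109785418, with 257 probes. That interval holds the short focal losses from 106759620, 107094774 and 109183411 that are listed below. Without focal losses and segments under 20 probes, its 213 probes averaged -0.25. Tumor 2 was at -0.26 in the whole interval and tumor 8 at -0.48, each also below its own chromosome 12 median, by -0.096 and -0.083. Tumors 1 and 3 lay above theirs there, by 0.071 and 0.075.

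After subtraction of the pattern, what remained of the profile along the chromosome was alike in some tumors and opposite in others. Over the 106 bins on the second scale, Pearson's r was 0.79 between tumors 7 and 8, 0.78 between tumors 2 and 7 and 0.68 between tumors 2 and 8. Tumor 3 had r of -0.84 with tumor 7, -0.73 with tumor 2 and -0.70 with tumor 8, but 0.64 with tumor 6. Across all 28 pairs r ran between -0.84 and 0.79 with a median of -0.14. These are descriptions over bins that share arrays, the control pool and the subtracted pattern. That pattern is the median of the same 8 arrays, so deviations from it tend to oppose each other by construction. A negative r therefore does not show opposite copy number changes. The part of the arrays and the pool in the correlations was not tested.

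The spread of the bins was widest in tumor 7, whose bins had an SD of 0.10 on chromosome 12 against a median of 0.096 over its other autosomes. The SD was 0.072 in tumor 1 and 0.054 in tumor 4, against medians of 0.043 and 0.032 over the other autosomes of each. In tumors 2, 3, 5, 6 and 8 it was 0.049, 0.037, 0.025, 0.046 and 0.067, against 0.040, 0.038, 0.025, 0.046 and 0.068 over the other autosomes. Tumors 1 and 4, the holders of the focal loss and of the alternating stretches, were the tumors in which chromosome 12 exceeded its own array's median spread most. The bins of those regions are part of the SD, so it is not separate evidence for them. Ranked among the autosomes from the lowest SD, chromosome 12 stood at 16 in tumors 1 and 2 and at 15 in tumor 4. The difference in spread was not tested.

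**Figure D4:**
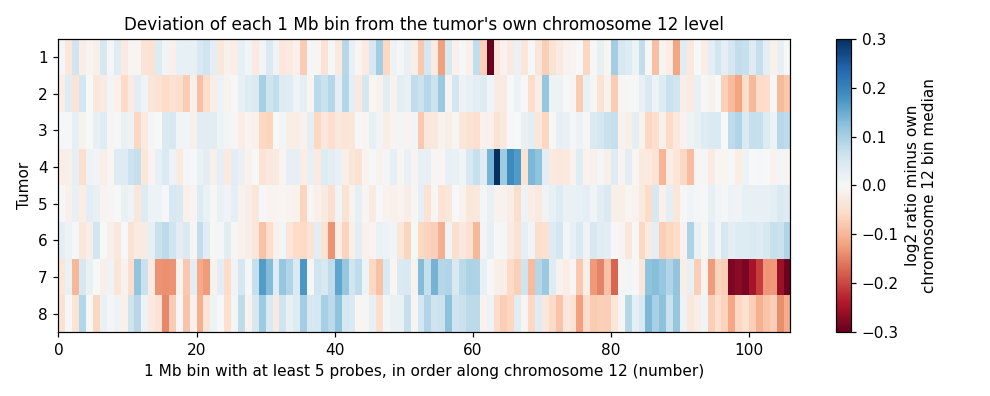
Deviation of each of the 106 bins from the tumor's own chromosome 12 bin median on the second scale (color, log2, red below and blue above, limited to 0.3 on either side), with bins in order along the chromosome (x axis) and tumors down the page (y axis). The darkest red cell of tumor 1 is the bin at -1.28, the blue block of tumor 4 holds its shallower stretches, and the last bins of tumor 7 are red.

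Of the 8 focal losses on chromosome 12, 1 was in tumor 1, 5 were in tumor 7 and 2 in tumor 8. Over all chromosomes these tumors held 9, 54 and 27 of the 122 focal losses. They touched 9 of 848 bins by tumor (1.06%), against 0.677% over the genome. Those of tumors 7 and 8 were short and shallow. In tumor 7 they lay at 12:103784039-103917654 (13 probes, -0.52 from the flanks), 12:106759620-106846183 (9 probes, -0.50), 12:107094774-107155911 (8 probes, -0.45), 12:109183411-109242804 (7 probes, -0.47) and 12:112025836-112061928 (5 probes, -0.47). In tumor 8 they lay at 12:81190420-81270858 (8 probes, -0.36) and 12:103810473-103881341 (8 probes, -0.35), the second of them inside the first of tumor 7.

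These short losses moved with the pattern that was subtracted. At 12:103784039-103917654 with the pattern kept, tumor 7 was 0.20 below its flanks and tumor 8 was 0.18 above its flanks, while tumors 1 to 6 were 0.60 to 0.76 above theirs. At 12:112025836-112061928 tumor 7 was 0.14 above its flanks with the pattern kept, against 0.96 to 1.25 in tumors 1 to 6. At 12:81190420-81270858 tumor 8 was 0.064 above its flanks, against 0.69 to 0.86 in tumors 1 to 6. The part of the pattern in these losses was not tested.

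Tested bin by bin over the 8 tumors, 6 of the 106 bins of chromosome 12 (5.66%) were lower than the pool on array medians, against 9 of all 2531 bins (0.356%), by limma's treat test against a log2 size of 0.1 at an adjusted p under 0.05. None of the 106 was higher, against 251 of all bins (9.92%). The count of lower bins on chromosome 12 was 3 without tumor 1, 4, 5, 6 or 8 and 9 without tumor 7, and 10 with the slide as a random block. Over the genome the lower bins then numbered 5 or 6, 13 and 15. Of the 6 lower bins 4 were in the last 5 Mb of the stretch that the members cover. The lowest, 12:114000001-115000000 with 35 probes inside the rule, averaged -0.55 ± 0.22 (SD, n = 8; limma adjusted p = 6.8e-06).

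In that bin all 8 tumors were below 0 on array medians, with tumor 1 lowest at -0.92, tumors 4 and 8 at -0.69 and -0.67, and tumor 3 highest at -0.20. The distal bins 12:113000001-114000000 and 12:110000001-111000000 followed on the same scale at -0.34 ± 0.23 and -0.32 ± 0.21 (SD, n = 8), with limma adjusted p of 0.00513 and 0.00754. The remaining bins were 12:26000001-27000000 (-0.28 ± 0.22, limma adjusted p = 0.0419), 12:111000001-112000000 (-0.28 ± 0.21, limma adjusted p = 0.0394) and 12:10000001-11000000 (-0.27 ± 0.23, limma adjusted p = 0.0493), each with n = 8.

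On the second scale no bin passed limma's adjusted threshold, although 98 of the 106 bins of chromosome 12 (92.5%) were lower than the pool at an unadjusted p under 0.05. The share of lower bins was 3.87% over the genome, and every such bin lay on chromosome 12. A further 79 bins of other chromosomes were higher at that p, and 0 of chromosome 12. In the bin at 12:114000001-115000000 the mean was then -0.30 ± 0.25 (SD, n = 8), close to that of the whole chromosome, with tumor 3 at 0.051 and tumor 5 at 0.032. A lowering of this bin against its chromosome that most arrays share is subtracted with the pattern. Tumor 7 stayed at -0.30 and tumor 2 at -0.24 there.

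The probes on both sides of the end of the members were alike in being low on array medians. The last 20 probes inside, 12:114179523-114396597, had means per tumor of -0.94 to -0.18, and the first 20 outside, 12:114403600-114593082, had means of -0.60 to 0.024. Tumor 1 was lowest and tumor 3 highest in both.

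The distal part of the chromosome, 3720 probes beyond 58749569, was lower than the proximal 2967 probes in all 8 tumors on array medians. The difference was -0.029 ± 0.020 (SD, n = 8), and the exact sign-flip test gave p = 0.00781, adjusted to 0.0223 over 20 chromosomes. The same test passed for 11 of 20 chromosomes (55%), so a difference between the parts was common to most chromosomes. It was largest in size in tumor 7, at -0.064 (0.027 distal and 0.091 proximal), and smallest in tumor 4, at -0.0085 (-0.23 distal and -0.23 proximal). With the pattern subtracted the mean difference was -0.0082 ± 0.024 (SD, n = 8), 4 of 8 tumors were below 0, and the exact sign-flip test gave p = 0.406 and an adjusted p of 1. The pattern is the median of these same 8 arrays, so a difference that most tumors share is subtracted with it. The test on the second scale therefore cannot tell whether the tumors share such a difference.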

How the data were processed

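The members and the gene lists were chosen with earlier results of these data known. Genomic DNA of 8 tumors was hybridized against 1 wild-type pool, 1.5 µg of DNA per labelling per the labels. The authors scanned and extracted the arrays with Agilent Feature Extraction 10.7.3.1, per the submitters' processing notes. Per the file headers, the deposited processed signals are intensity values from which the authors' software had removed background and spatial trend, with the dyes scaled linearly. The median signals of spot and background, deposited beside them, are unprocessed intensity values. The deposited log ratios are log10 of red over green, not centred. The deposited quality marks, of the unit kind other, are 0 or 1 per spot. Positions are on mm9, per the file headers.

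Log2 ratios of red over green were computed from the deposited processed signals, with outlier-marked spots left out, spots of a probe averaged and the array median set to 0. The pattern of the second scale is each probe's median over the 8 arrays, taken after removal of chromosome medians; it was fitted to an array by a factor before subtraction. Then 0 was placed at the commonest level of the tumor's segments. Segments came from recursive circular binary segmentation (split at z of 5, merged below z of 4, values limited to 4 noise SD). It was run in Python 3.11.15 with numpy 2.4.6, numba 0.67.0, pandas 2.3.3 and scipy 1.17.1, and tested on simulated chromosomes. These held independent noise, a planted deep loss and a planted rise, without a shared pattern. The simulation therefore does not cover short shallow losses or the subtraction of the pattern. The test of bins used limma 3.58.1 (R 4.3.3). Plots used matplotlib 3.10.9.

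The rule for what is named took list genes on chromosome 12, segments of at least 3 Mb (summarised here), steps, focal losses and bins that passed. Genes with at least 3 probes were to be placed by position, which was not done here because gene names on mm9 were not at hand. Alternatives were other centrings, the pattern kept or taken from the other 7 arrays, normexp (offset 50, on median signals, as mean signals were not used here), other thresholds and bin sizes, the slide as a random block, and leaving out each tumor.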

Additional observations from a re-analysis of the deposited data

Results flagged for a closer look

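In 9 of 22 sets of 8 tumor values a single tumor stood apart from the rest by more than Dixon's 95% limit, which chance does in about 1 of 20 sets. Most of these regions had been picked because 1 tumor was low or high in them, so the share is not a test. The largest gaps belonged to tumors 1 and 4. The focal loss of tumor 1 at 12:70993213-71313799 was -1.32 from its flanks. The stretches of tumor 4 that begin at 71548033, 73781401 and 77006444 lay 0.33, 0.17 and 0.12 above the median of its chromosome 12.

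The short losses of tumor 7 that begin at 103784039, 106759620, 107094774 and 112025836 were -0.52, -0.50, -0.45 and -0.47 from their flanks. The short loss of tumor 8 that begins at 81190420 was -0.36 from its flanks. The arrays of tumors 7 and 8 had the lowest noise on array medians, 0.39 each, and the highest on the second scale, on which the short losses were called, 0.21 and 0.18. The part of this in the short losses was not tested.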

How the results depend on the processing

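The 4 whole losses of chromosome 12 were called in the same tumors under every alternative run except a call threshold of 0.3 on array medians, which kept tumor 1 alone (1 tumor), and 0.1 on the second scale, which added tumor 2. The chromosome mean stayed below 0 and without a passing adjusted p under all alternatives, and between -0.17 and -0.078 on array medians when 1 tumor was left out. The count of lower bins, 6 on array medians, was 0 with the pattern subtracted and the commonest level at 0, 1 when only the commonest level was moved to 0, 11 after normexp, 37 with limma's plain test, 0 in 5 Mb bins, 10 with the slide as a random block, and 3 to 9 when 1 tumor was left out (3 without tumor 1, 4, 5, 6 or 8, and 9 without tumor 7). Over the genome the lower bins numbered 9, 0, 3, 16, 76, 0 and 15 in that order, and 5 to 13 when 1 tumor was left out. The count of internal steps of chromosome 12 was 103, of 2300 over the genome, and the chromosome holds 106 of the 2531 bins. It was 20 with the pattern kept and 43 at a z of 6. The count of 8 focal losses was 3 with the pattern kept (that of tumor 1 and new calls at 12:113259586-114396597 in tumors 2 and 7, at -0.31 and -0.32 from the flanks, with none of the 7 short ones), 3 at a depth of at least 0.5, 2 with at least 10 probes and 2 at a z of 6. The focal loss of tumor 1 was found under each of these and after normexp. The count was 7 with the pattern from the other 7 arrays, and 7 after normexp, which split the region of tumor 1. Neither called the short losses from 112025836 (tumor 7), 81190420 and 103810473 (tumor 8). Normexp also lacked a call from 106759620 (tumor 7). New calls began at 109473660 and 109500495 in tumor 7 and at 109490179 and 109500495 in tumor 8. With the pattern kept 3 short losses changed sign, to 0.14 (from 112025836, tumor 7), 0.064 (from 81190420, tumor 8) and 0.12 (from 103810473, tumor 8). The distal difference was -0.0082 with the pattern subtracted and -0.032 to -0.024 when 1 tumor was left out. The causes of these changes were not tested. No paired analysis was possible because the labels form 1 group. With 8 tumors and 1 array each, the exact test cannot give a p below 0.00781. A change within a chromosome that most arrays share is subtracted with the pattern, while a shift of a whole chromosome is not.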
